A study of Mus musculus with 4 samples.

Results

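Transcripts of 35 ribosome biogenesis genes were followed in single cells of MK, a mouse keratinocyte line, in a library titled Diff_MK and a library titled MK. The genes were taken by symbol from a list drawn up for their known roles, but with earlier results of these data known. All 35 were found among the 32285 genes of the RNA count tables. Cells of both RNA libraries carry the treatment label Dox (the usual short form of doxycycline) and were kept in E low medium with 15% serum. Both were sorted for GFP, which marks cells holding a heritable DNA tag, and captured with 10x 3′ chemistry. What Diff means is not spelled out by the labels, which name no other difference between the libraries. Each title has 1 RNA library and 1 tag library, so no test between conditions was possible. The intervals below are 95% intervals that cover counting error only.

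Ribosomes are built in the nucleolus, where RNA polymerase I transcribes the precursor of most ribosomal RNA. Small nucleolar RNPs, which are RNA-guided complexes, modify that precursor, and large sets of assembly factors fold it, cut it and join it to ribosomal proteins. Myc, a transcription factor that pairs with Max at the sequence CACGTG, is known for raising transcription of polymerase I and of many assembly factors in growing cells. In epidermis, growing cells sit in the basal layer, and keratinocytes stop dividing as they move outward.

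The Diff_MK library held 6912 kept cells with 103885150 unique molecular identifiers (UMIs, 1 for each captured mRNA molecule), and the MK library 7175 kept cells with 115181759. The median cell had 14223.5 UMIs in Diff_MK and 15599 in MK. The libraries shared 14 cell barcodes, 9 of them among kept cells. The keratin gene Krt14 stood at 12790 CPM (UMIs per 1000000 UMIs of the library) in Diff_MK and 6295 CPM in MK, and Krt5 at 3140 CPM in Diff_MK and 1152 CPM in MK. Marker lists of melanocytes (7 genes), fibroblasts (7), immune cells (7) and endothelium (5) summed to at most 25.1 CPM in Diff_MK and 29.4 CPM in MK. Mlana, Col1a1, Ptprc and Pecam1 were each under 1 CPM in both libraries.

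Promoter sequences are shown for the members with the lowest and the highest CPM ratios and for Nop2, whose CACGTG lies upstream of its start. RefSeq promoters (GRCm38.p6, 250 bases before to 50 bases after the start) were matched for 29 of the 35 members, and Myc was not among them. The stretches below run from 150 bases before to 25 bases after the start, on the gene's own strand. They lie at chr2:130274262-130274436 (Nop56), chr2:129100846-129101020 (Polr1b), chr1:59684856-59685030 (Nop58), chr8:106893490-106893664 (Utp4), chr6:125131733-125131907 (Nop2), chr17:32036012-32036186 (Rrp1b) and chr2:112261776-112261950 (Nop10), all on the plus strand. Capitals mark CACGTG in Utp4 and Nop2, and in Polr1b and Nop10 a run of 14 bases that both share.
Nop56: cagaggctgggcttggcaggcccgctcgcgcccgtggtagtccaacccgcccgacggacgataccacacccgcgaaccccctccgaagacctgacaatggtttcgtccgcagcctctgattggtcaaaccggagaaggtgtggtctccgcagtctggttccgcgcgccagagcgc
Polr1b: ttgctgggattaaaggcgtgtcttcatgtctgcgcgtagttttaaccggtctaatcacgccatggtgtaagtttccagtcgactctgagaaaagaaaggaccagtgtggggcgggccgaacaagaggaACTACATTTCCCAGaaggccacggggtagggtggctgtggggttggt
Nop58: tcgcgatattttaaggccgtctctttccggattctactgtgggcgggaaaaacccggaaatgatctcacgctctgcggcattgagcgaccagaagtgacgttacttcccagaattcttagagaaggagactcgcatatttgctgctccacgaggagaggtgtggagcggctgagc
Utp4: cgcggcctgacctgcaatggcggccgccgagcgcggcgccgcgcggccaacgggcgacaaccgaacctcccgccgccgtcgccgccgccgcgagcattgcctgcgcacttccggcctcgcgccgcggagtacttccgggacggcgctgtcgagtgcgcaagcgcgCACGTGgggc
Nop2: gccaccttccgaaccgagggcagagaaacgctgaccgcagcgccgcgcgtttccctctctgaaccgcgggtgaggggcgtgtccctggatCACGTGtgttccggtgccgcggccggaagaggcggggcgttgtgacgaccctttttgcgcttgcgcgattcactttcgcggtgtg
Rrp1b: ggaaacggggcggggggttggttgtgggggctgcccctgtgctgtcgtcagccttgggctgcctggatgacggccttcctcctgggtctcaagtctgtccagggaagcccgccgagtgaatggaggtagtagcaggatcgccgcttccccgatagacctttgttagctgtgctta
Nop10: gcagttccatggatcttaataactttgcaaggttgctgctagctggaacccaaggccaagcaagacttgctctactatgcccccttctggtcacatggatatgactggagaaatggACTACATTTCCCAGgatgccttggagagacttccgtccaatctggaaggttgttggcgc

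CACGTG, which reads the same on both strands, was found in 5 of the 29 member promoters (17.2%). It starts 60 bases before the start of Nop2 and at bases 3, 16, 18 and 38 after the start of Pes1, Utp4, Wdr43 and Utp20. The share was 8.09% of all 27025 promoters of the table, 12.8% of 7267 promoters of genes that passed the expression minimum, and 18.9% of 132 promoters of other ribosome biogenesis genes. Members with the motif had CPM ratios of Diff_MK over MK from 0.583 (Utp4) to 0.816 (Pes1), within the range of the members without it. ACTACATTTCCCAG, the run shared by Polr1b and Nop10, was noticed after the values were seen. It occurred in 90 promoters of the table (0.333%), and the next longest run shared by any of 15 pairs among the 6 promoters chosen by ratio was 9 bases. Polr1b and Nop10 lay at opposite ends of the members' ratios, at 0.566 and 1.03.

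Nearly the whole list stood lower in Diff_MK. All 35 members passed a minimum of 5 CPM on the mean of both libraries, and 33 were lower in Diff_MK by some amount, against 69.4% of the 9052 genes that passed. At least 1.5-fold lower were 12 of 35 members, against 7.59% of all genes. No member was at least 1.5-fold higher in Diff_MK, against 4.42% of all genes, and Nop56 alone was at least 2-fold lower, against 0.884%. The median log2 ratio was -0.50 (interval over members -0.59 to -0.40), against -0.15 over all genes. Members together took 6317 CPM in Diff_MK (656284 UMIs) and 9326 CPM in MK (1074205 UMIs), a ratio of 0.677 (0.675 to 0.679). Scaled by the median ratio of all genes, which moves that median to 0, 5 members were at least 1.5-fold lower and 1, Myc, at least 1.5-fold higher, a split of 5 to 1 in place of 12 to 0. Over all genes the same scaling gave 286 lower and 623 higher, in place of 687 and 400. With cells of low, middle and high cell-cycle share weighted equally in both libraries, 3 members were at least 1.5-fold lower. These were Nop56, Utp4 and Polr1b, against 4.90% of all genes. The calls of the other 9, among them Nop58, Dkc1, Ncl, Nolc1 and Nop2, ended under that weighting.

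Marker lists of the outer epidermal layers and of the basal layer summed to more in Diff_MK, the other way from the members. Of 14 granular-layer genes, 10 passed the minimum, 8 of them at least 1.5-fold higher in Diff_MK, against 4.42% of all genes. The list summed to 2460 CPM in Diff_MK and 1096 CPM in MK. Of 12 spinous-layer genes, 7 passed, 3 of them at least 1.5-fold higher, against the same 4.42%. This list summed to 6330 CPM in Diff_MK and 3092 CPM in MK. Lor (loricrin), a granular-layer gene, was lower, at 30.6 CPM in Diff_MK and 83.8 CPM in MK. The part of these markers in the members' difference was not tested.

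**Figure D1:**
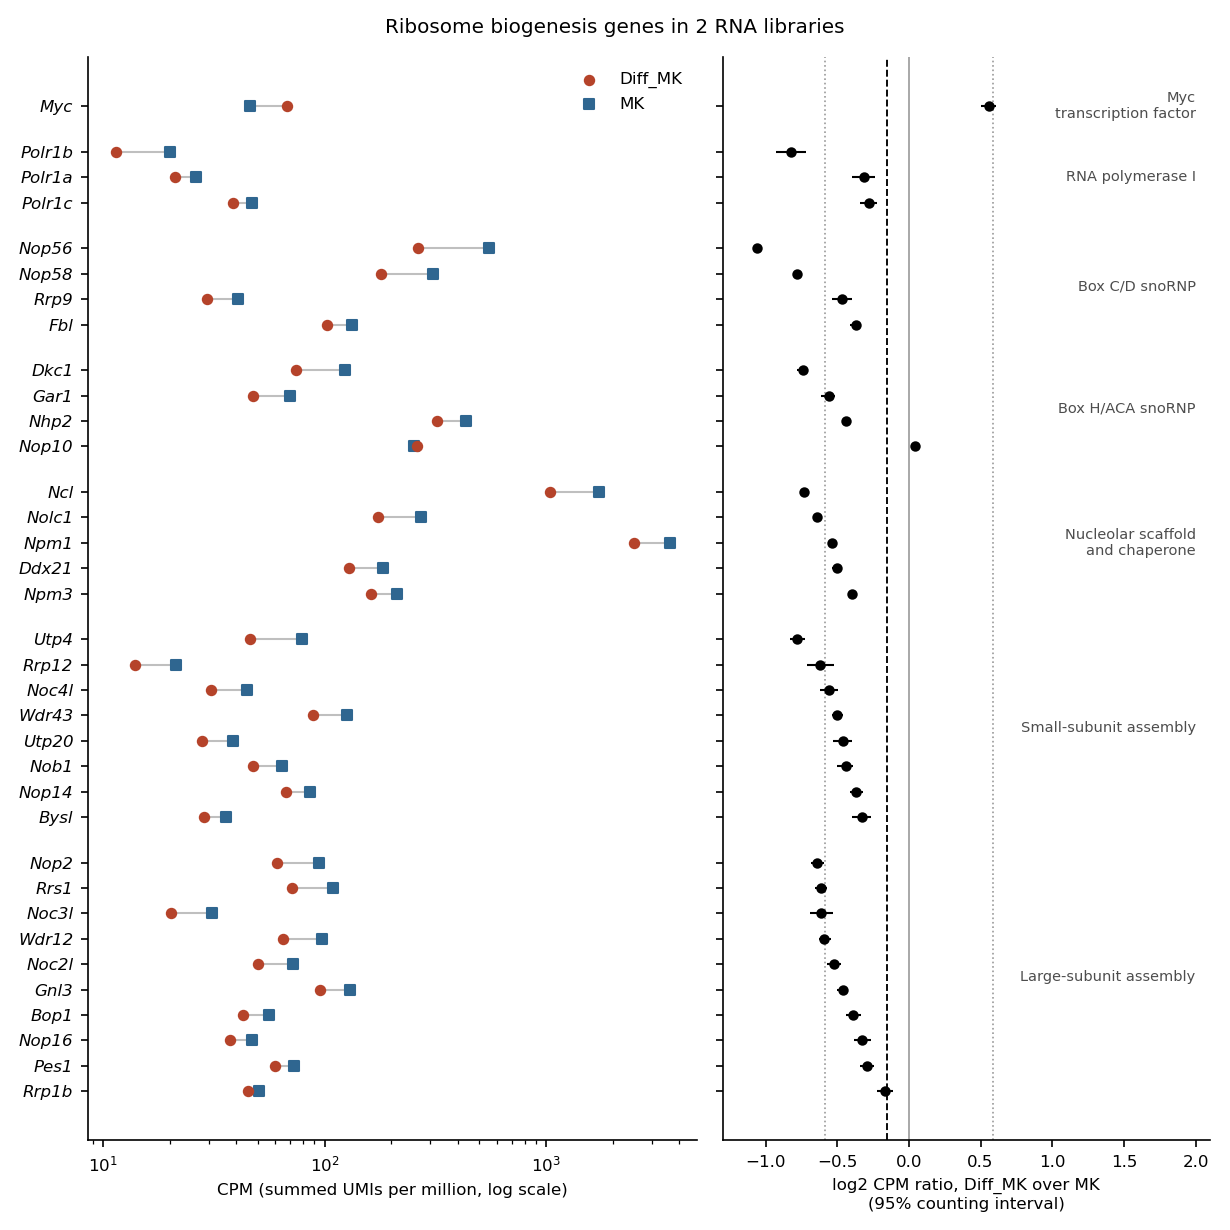
Left, CPM (log scale) of each of the 35 genes in the Diff_MK library (circles) and the MK library (squares), 1 library each, grouped by role. Right, log2 of the CPM ratio Diff_MK over MK with its 95% counting interval, where the dashed line is the median of all genes (-0.15) and dotted lines mark 1.5-fold; Nop56 lies lowest at -1.06 and Myc highest at 0.56.

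Myc went the other way from the genes it is known to activate. The gene lies at chr15:61985391-61990374 (GENCODE vM21 on GRCm38). Its level was 67.5 CPM in Diff_MK (66.0 to 69.1) and 45.9 CPM in MK (44.7 to 47.2), a ratio of 1.47 (1.42 to 1.52), above 95.3% of all genes. With each cell thinned to 7500 UMIs, 37.4% of Diff_MK cells and 27.5% of MK cells had a Myc UMI. Unthinned, the shares were 53.8% of Diff_MK cells and 44.9% of MK cells. No cell type known to lack the members was present, so the share that free RNA gives could not be measured.

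The 3 RNA polymerase I subunits were all lower in Diff_MK, against 69.4% of all genes, and summed to a ratio of 0.762 (0.740 to 0.785). Polr1b, one of the pair of large catalytic subunits, had 11.4 CPM in Diff_MK and 20.1 CPM in MK, 1.77-fold lower (1.65 to 1.90). Its partner Polr1a had 21.1 CPM in Diff_MK and 26.3 CPM in MK. Polr1c, which also serves RNA polymerase III, had 38.7 CPM in Diff_MK and 47.1 CPM in MK. Polr1a and Polr1c were thus 1.24-fold and 1.22-fold lower, less than Polr1b by more than their counting intervals.

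Box C/D snoRNP proteins, which carry out ribose methylation of ribosomal RNA, were the group with the lowest summed ratio, 0.557 (0.552 to 0.563). Nop56, a core protein of the particle (chr2:130274430-130279313), had 265 CPM in Diff_MK and 552 CPM in MK, 2.08-fold lower (2.05 to 2.11), with a log2 ratio below all but 0.685% of genes. Nop58, its paired core protein, had 179 CPM in Diff_MK and 308 CPM in MK, 1.72-fold lower. The methyltransferase Fbl (fibrillarin) had 103 CPM in Diff_MK and 133 CPM in MK, 1.30-fold lower, and Rrp9, a protein of the particle that guides early cleavage, 29.4 CPM in Diff_MK and 40.7 CPM in MK, 1.38-fold lower. The core scaffold pair thus differed more between libraries than the enzyme of the same particle.

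Box H/ACA snoRNP proteins, which convert uridine to pseudouridine and also belong to telomerase, were uneven. Dkc1, the pseudouridine synthase, had 74.0 CPM in Diff_MK and 124 CPM in MK, 1.67-fold lower (1.63 to 1.72). Gar1 had 47.5 CPM in Diff_MK and 70.2 CPM in MK, 1.48-fold lower, and Nhp2 321 CPM in Diff_MK and 436 CPM in MK, 1.36-fold lower. Nop10, the smallest core protein, had 261 CPM in Diff_MK and 254 CPM in MK, a ratio of 1.03 (1.01 to 1.05). Its log2 ratio of 0.04 had no stable sign, since it was -0.03 with each cell weighted equally and 0.20 under median scaling.

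The nucleolar scaffold and chaperone genes held most of the members' UMIs, 4000 CPM in Diff_MK and 6011 CPM in MK. Npm1 (nucleophosmin), the most abundant member, had 2488 CPM in Diff_MK and 3611 CPM in MK, 1.45-fold lower. Mouse Npm1 has near-identical pseudogene copies, and how reads were divided among them is not given in the sources used here. Ncl (nucleolin), which binds ribosomal RNA precursors, had 1047 CPM in Diff_MK and 1732 CPM in MK, 1.65-fold lower. Nolc1, a chaperone of snoRNPs, had 174 CPM in Diff_MK and 272 CPM in MK, 1.56-fold lower. The RNA helicase Ddx21 and the nucleoplasmin family member Npm3 were 1.42-fold and 1.32-fold lower, at 129 and 162 CPM in Diff_MK and 183 and 213 CPM in MK.

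All 8 small-subunit assembly genes were lower in Diff_MK, against 69.4% of all genes, with log2 ratios from -0.78 to -0.33. Utp4, a subunit of the processome that forms on the nascent precursor, had 45.9 CPM in Diff_MK and 78.8 CPM in MK, 1.71-fold lower (1.66 to 1.78). Rrp12, a factor in the export of both subunits, had 13.9 CPM in Diff_MK and 21.4 CPM in MK, 1.54-fold lower. The other processome proteins (Noc4l, Wdr43, Utp20 and Nop14) were 1.29-fold to 1.47-fold lower. Late in assembly, Nob1, the nuclease that makes the final cut of the small-subunit RNA, had 47.5 CPM in Diff_MK and 64.6 CPM in MK, and Bysl (bystin), a factor of the maturing small subunit, 28.5 CPM in Diff_MK and 35.8 CPM in MK.

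All 10 large-subunit assembly genes were lower as well, against 69.4% of all genes, with log2 ratios from -0.64 to -0.17. Nop2, a methyltransferase of large-subunit RNA, had 60.9 CPM in Diff_MK and 94.9 CPM in MK, 1.56-fold lower (1.51 to 1.61). Rrs1, which in yeast helps to load the small ribosomal RNA of the large subunit, had 71.6 CPM in Diff_MK and 109 CPM in MK, 1.53-fold lower. Noc3l had 20.3 CPM in Diff_MK and 31.0 CPM in MK, 1.53-fold lower, and its relative Noc2l 50.2 CPM in Diff_MK and 72.2 CPM in MK, 1.44-fold lower. The PeBoW complex, formed by Pes1, Bop1 and Wdr12, did not move as a unit. Wdr12 had 64.9 CPM in Diff_MK and 97.4 CPM in MK, a ratio of 0.666 (0.646 to 0.687), whereas Pes1 had 59.5 CPM in Diff_MK and 73.0 CPM in MK, a ratio of 0.816 (0.789 to 0.843). Bop1 lay between them at 42.9 CPM in Diff_MK and 56.1 CPM in MK. Gnl3 (nucleostemin), a nucleolar GTPase of cycling cells, had 95.2 CPM in Diff_MK and 131 CPM in MK, and Nop16, a nucleolar protein of early large-subunit precursors in yeast, 37.6 CPM in Diff_MK and 47.1 CPM in MK. Rrp1b, a nucleolar protein of the large-subunit pathway, was closest to even, at 45.0 CPM in Diff_MK and 50.5 CPM in MK, a log2 ratio of -0.17 that was 0.07 once cells of each cell-cycle level were weighted equally.

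The rest of the pathway, taken from lists without the 35 members, lay on the same side by less. These lists, too, were chosen with earlier results of these data known. Of 44 further genes listed with the processome, 7 were at least 1.5-fold lower in Diff_MK and 0 at least 1.5-fold higher. Their median log2 ratio was -0.39. Rrp8 was the lowest on that list, at 42.4 CPM in Diff_MK and 83.9 CPM in MK. Imp4 came next, at 60.2 CPM in Diff_MK and 103 CPM in MK. Of 58 further large-subunit factors, 10 were at least 1.5-fold lower, with a median of -0.41. Eif6, which keeps immature large subunits from joining small ones, had 529 CPM in Diff_MK and 774 CPM in MK, while Nop53 was higher, at 135 CPM in Diff_MK and 98.4 CPM in MK. Further polymerase I genes (2 of 20 at least 1.5-fold lower, median -0.35) and genes listed with the exosome (2 of 14, -0.40) lay near them in median. The 2 called on the exosome list were Exosc3 and Xrn2. Late small-subunit factors (0 of 11, -0.33) and snoRNP assembly genes (0 of 11, -0.34) lay near them as well. The called share was 7.59% over all genes. Transcripts that host snoRNAs were less shifted, with a median of -0.18, 2 of 14 at least 1.5-fold lower and 1 higher. Gas5, the most abundant of these, had 535 CPM in Diff_MK and 492 CPM in MK.

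Ribosomal protein genes differed from the assembly genes in direction. Cytosolic ribosomal protein genes were higher in Diff_MK in 68 of 80 cases, against 2769 of all 9052 genes. Their median log2 ratio was 0.19, and they summed to 272539 CPM in Diff_MK and 242005 CPM in MK. None of the scaling or cell settings turned the sign of that median, which ran from 0.15 to 0.34. Mitochondrial ribosomal protein genes had a median of -0.26, with 5 of 78 at least 1.5-fold lower, near the 7.59% of all genes. Growth genes described as Myc targets had 10 of 38 at least 1.5-fold lower and a median of -0.44. Odc1, the first enzyme of polyamine synthesis, was the lowest, at 495 CPM in Diff_MK and 867 CPM in MK. On a list of Myc partners and antagonists, 4 of 11 were at least 1.5-fold higher in Diff_MK, against 4.42% of all genes. These were Mxd4, Mxd1, Mxi1 and Mycl, the last a member of the Myc family. Mxd4, which competes with Myc for Max, had 18.1 CPM in Diff_MK and 7.55 CPM in MK, a ratio of 2.40 (2.21 to 2.60), while Max had 50.8 CPM in Diff_MK and 50.1 CPM in MK. These lists were compared by counts and medians only.

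**Figure D2:**
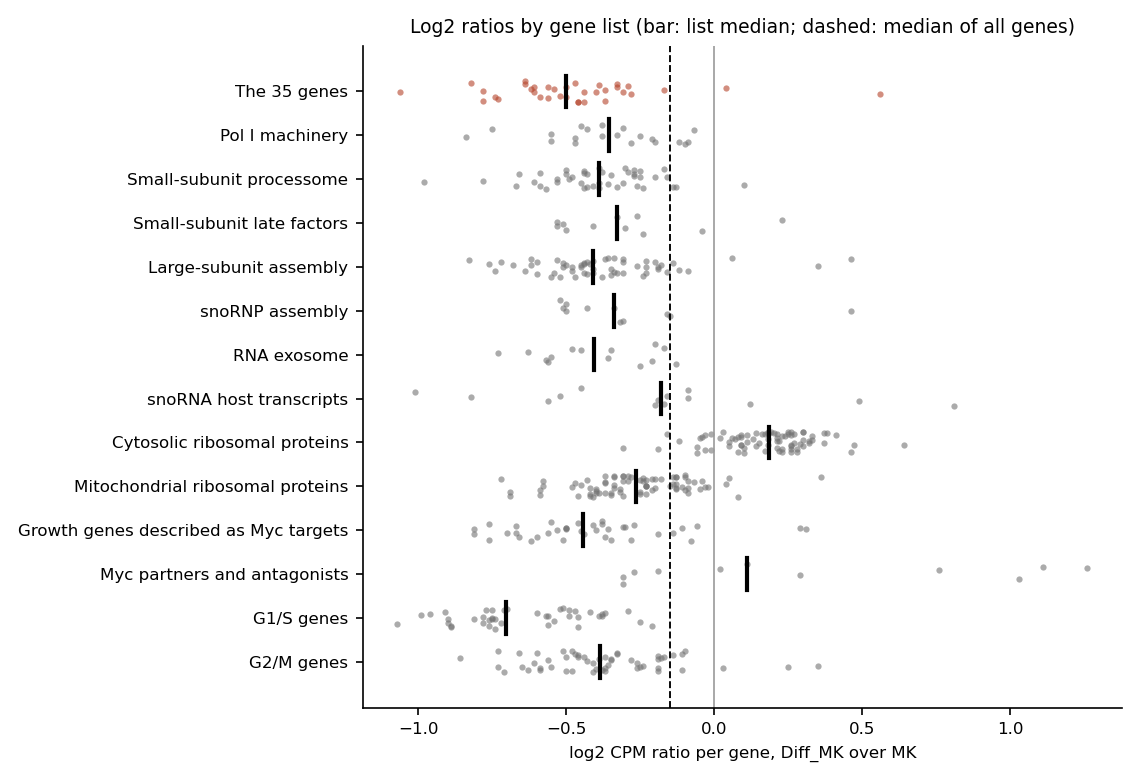
Each point is the log2 CPM ratio, Diff_MK over MK, of 1 gene that passed 5 CPM, by list (1 library per group). Bars are list medians and the dashed line is the median of all genes, -0.15; the 35 genes have a median of -0.50, G1/S genes of -0.71 and cytosolic ribosomal proteins of 0.19.

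Cell-cycle genes were lower in Diff_MK alongside the members. Of 42 G1/S genes, 23 were at least 1.5-fold lower in Diff_MK (median -0.71), and of 54 G2/M genes 11 were (median -0.39). Over all genes the share was 7.59%. Cells were therefore placed in 3 groups by their share of UMIs in these lists, with limits of 4822 and 9975 CPM set on all cells together, and 3205 cells lay within 10% of a limit. The low group held 3456 of 6912 Diff_MK cells and 1240 of 7175 MK cells. The members were lower in Diff_MK within each group, at 4074 CPM in Diff_MK against 5561 CPM in MK in low cells, 7771 CPM in Diff_MK against 9640 CPM in MK in middle cells, and 8050 CPM in Diff_MK against 10411 CPM in MK in high cells. The ratios were 0.733 (0.727 to 0.738), 0.806 (0.802 to 0.810) and 0.773 (0.770 to 0.777).

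Within the low group 33 members were lower in Diff_MK, against 76.3% of all genes, within the middle group 31, against 56.5%, and within the high group 32, against 54.5%. At least 1.5-fold lower were 17 members in the low group, against 24.3% of all genes, but only 2 in the middle group, against 2.13%, and 2 in the high group, against 2.11%. Nop56 had 132 CPM in Diff_MK and 268 CPM in MK in low cells, 353 CPM in Diff_MK and 560 CPM in MK in middle cells, and 367 CPM in Diff_MK and 647 CPM in MK in high cells. Its deficit in Diff_MK was thus present at every cell-cycle level. Utp4 behaved alike, with log2 ratios of -1.13, -0.62 and -0.52 from low to high. Nhp2 was uneven, at 198 CPM in Diff_MK and 319 CPM in MK in low cells but 414 CPM in Diff_MK and 459 CPM in MK in high cells. Myc was higher in Diff_MK in each group, at 81.4 CPM in Diff_MK and 39.7 CPM in MK in low cells, 60.7 CPM in Diff_MK and 46.5 CPM in MK in middle cells, and 54.6 CPM in Diff_MK and 47.6 CPM in MK in high cells. Across the 3 groups, Diff_MK cells with the lowest cell-cycle share thus had the highest Myc level and the lowest summed level of the 35 genes, while in MK both were lowest in the low group.

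**Figure D3:**
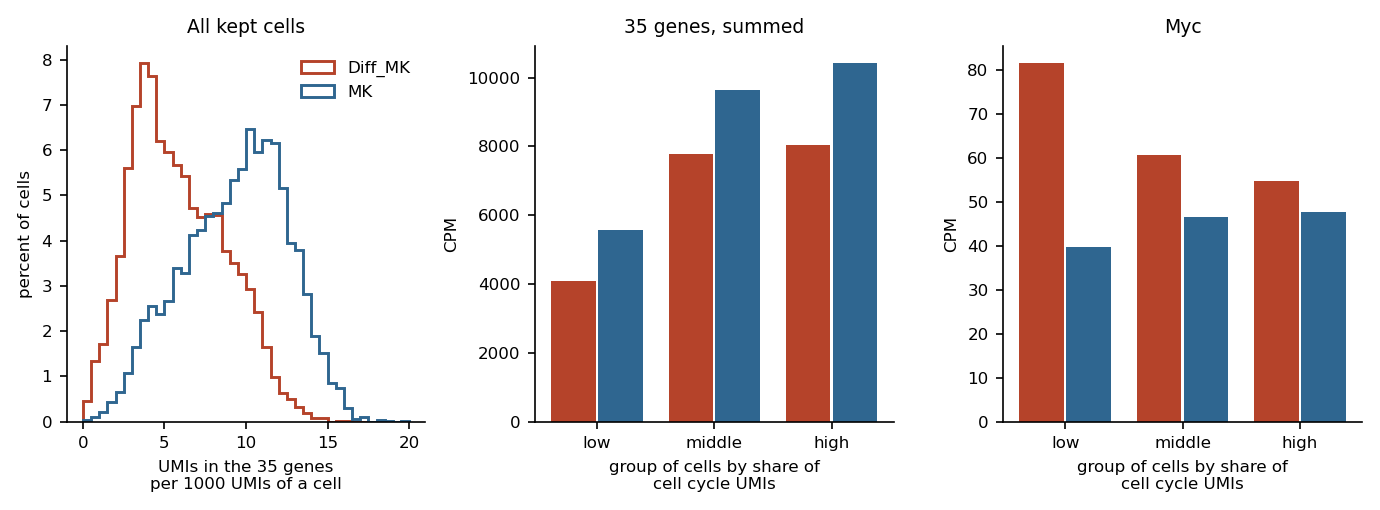
Left, distribution over cells of UMIs in the 35 genes per 1000 UMIs of the cell in Diff_MK (red) and MK (blue); medians correspond to 5487 CPM in Diff_MK and 9658 CPM in MK. Middle and right, CPM of the 35 genes together and of Myc in cells grouped by cell-cycle share (Diff_MK left, MK right in each pair; 1 library each); the genes together are lower in Diff_MK in every group and Myc is higher.

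In single cells, the members took a median of 5487 CPM in Diff_MK (quartiles 3651 and 7995) and 9658 CPM in MK (7020 and 11672). The distributions overlapped, but 88.0% of Diff_MK cells lay below the MK median. Depth changed the size of the difference. In cells under 10000 UMIs the members stood at 4429 CPM in Diff_MK and 8555 CPM in MK, a ratio of 0.518. The ratio was 0.560 from 10000 to 15000 UMIs, 0.718 from 15000 to 20000 UMIs and 0.810 above, where the members stood at 7338 CPM in Diff_MK and 9059 CPM in MK. The level in MK varied little with depth, whereas in Diff_MK it was lower in shallower cells.

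Most members followed the sum of the others more closely than the median gene did. Pearson correlations of each member with the sum of the other 34, over 6277 Diff_MK and 6838 MK cells thinned to 7500 UMIs, had medians of 0.23 in Diff_MK and 0.14 in MK, against 0.04 in Diff_MK and -0.00 in MK for all genes. Npm1 and Ncl made up much of the sum. In Diff_MK they had 2488 and 1047 of the members' 6317 CPM, and in MK 3611 and 1732 of 9326 CPM. Correlations of genes with few UMIs are held down by counting noise, and members and all genes were not matched in level. Cells of 1 library share its preparation, so these values are descriptive. Ncl (0.76 in Diff_MK and 0.69 in MK), Npm1 (0.72 in Diff_MK and 0.69 in MK) and Nop56 (0.55 in Diff_MK and 0.52 in MK) had the highest. In each library 17 of 35 members were at or above the 95th percentile of all genes. Utp4 was lowest in MK, at -0.02 (0.10 in Diff_MK), and Myc lowest in Diff_MK, at -0.06 (0.11 in MK). Bysl was also low in MK, at 0.04 (0.15 in Diff_MK).

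Cells were then sorted by their own Myc UMIs. In Diff_MK the other 34 members had a median of 43 UMIs per 7500 in cells with 0 Myc UMIs (3929 cells), 42 with 1, 40 with 2 and 33 with 3 or more (216 cells). In MK the order was opposite, with medians of 70, 75, 80 and 81 UMIs, the last from 77 cells. Diff_MK cells with 3 or more Myc UMIs were in the low cell-cycle group in 68.1% of cases, against 43.8% of those with 0. Within that low group, the mean number of member UMIs in Diff_MK was 28.7, 29.0, 31.5 and 30.4 from 0 to 3 or more Myc UMIs, so the downward order seen over all Diff_MK cells was absent there. In middle cells of Diff_MK the means were 57.3, 61.1, 62.2 and 50.7, the last from 43 cells, and in high cells 58.7, 60.4, 58.7 and 59.1. In low cells of MK the means were 40.3, 45.4, 49.3 and 51.1.

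Of genes outside all lists, those whose counts followed the summed members most closely were Ptma, Tuba1b, Hmgb1, Nap1l1, Tubb5, Serbp1, Anp32b, Hnrnpa3, Hnrnpu and Wfdc2, ranked by the mean Pearson correlation over both libraries. Ptma (prothymosin alpha) led with 0.68 in Diff_MK and 0.46 in MK, and Wfdc2 closed the group with 0.50 in Diff_MK and 0.36 in MK. All 10 were lower in Diff_MK in level, against 69.4% of all genes, from a log2 ratio of -0.71 (Tuba1b) to -0.12 (Tubb5). At the other end, chosen after their values were seen, the nuclear noncoding RNA Malat1 had -0.48 in Diff_MK and -0.39 in MK, and Aldoa, a glycolytic enzyme, -0.54 in Diff_MK and -0.28 in MK.

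Clusters were built from both libraries without the members or the other pathway lists among the variable genes. Of 13 clusters, 9 had 100 or more cells, and 68.2% of all cells lay in clusters with 90% or more of their cells from 1 library, so a cluster and its library often cannot be told apart. Clusters are given by number and leading genes, and ranks are among the 9. The members were highest in cluster 0 (Timp1, Hmga2, Ppbp, 64 Diff_MK and 3867 MK cells), at 11054 CPM, and lowest in cluster 8 (Serpinb11, Krt78, 489 Diff_MK and 0 MK cells), at 2014 CPM, a 5.49-fold range. Among smaller clusters, cluster 11 (Lce3c, Lce3d, Lce3e, 43 cells) stood at 1928 CPM. In cluster 8, 9 of the 12 spinous and 9 of the 14 granular genes were at least 1.5 times their level in all other cells. Of the 35 members, 33 were lowest in cluster 8 and 28 highest in cluster 0. Nop56 spanned 14.4-fold, at 46.4 CPM in cluster 8 and 670 CPM in cluster 0, and Ncl 9.89-fold. Myc and Nop10 had their lowest values elsewhere, in cluster 6 (Lor, Pth1r, Lcn2), at 17.6 and 156 CPM. Utp4 was highest in that same cluster 6, at 123 CPM, against 74.6 CPM in cluster 0.

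Cluster 1 (Krt15, Clu, Lgals7, 1840 Diff_MK cells and 1 MK cell) combined the highest Myc level, 102 CPM, with the next to lowest level of the members together among these 9, 3767 CPM. Its cytosolic ribosomal protein genes summed to 347077 CPM, more than in any other of the 9 clusters, and its median depth was 10134 UMIs, the lowest of them. In cluster 8 Myc stood at 69.8 CPM and Nop56 at 46.4 CPM. Of the clusters with many cells of both libraries, cluster 3 (Krt16, Sprr2d, Fxyd2, 693 Diff_MK and 996 MK cells) had 5391 CPM in members for Diff_MK and 5982 CPM for MK, with Myc at 72.8 CPM in Diff_MK and 46.9 CPM in MK. Cluster 2 (Ada, Cdh2, Arhgdib, 242 Diff_MK and 1595 MK cells) had 7454 CPM in Diff_MK and 8760 CPM in MK, with Myc at 34.1 CPM in Diff_MK and 37.8 CPM in MK. Cluster 6 (293 Diff_MK and 562 MK cells) had 4137 CPM in Diff_MK and 4516 CPM in MK, with Myc at 27.0 CPM in Diff_MK and 12.7 CPM in MK. In these 3 clusters the members were lower in Diff_MK, by less than over the whole libraries. Clusters dominated by 1 library differed among themselves. Cluster 0 had 8810 CPM in Diff_MK and 11090 CPM in MK, but cluster 4 (Pclaf, Akap12, Fn1, 1364 Diff_MK and 55 MK cells) had 8778 CPM in Diff_MK and 7772 CPM in MK, and cluster 7 (Tmem176b, Tmem176a, Stmn2, 643 Diff_MK and 43 MK cells) 8371 CPM in Diff_MK and 8289 CPM in MK. Of these 6 clusters with 20 or more cells of each library, the members were thus lower in Diff_MK in 4 and higher in 2. Myc was higher in Diff_MK in 2, clusters 3 and 6, and lower in 4. In clusters 0, 4 and 7 the smaller library had only 64, 55 and 43 cells. No interval was computed for values by cluster and library, so small differences there, for Myc or the members, may be counting error.

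**Figure D4:**
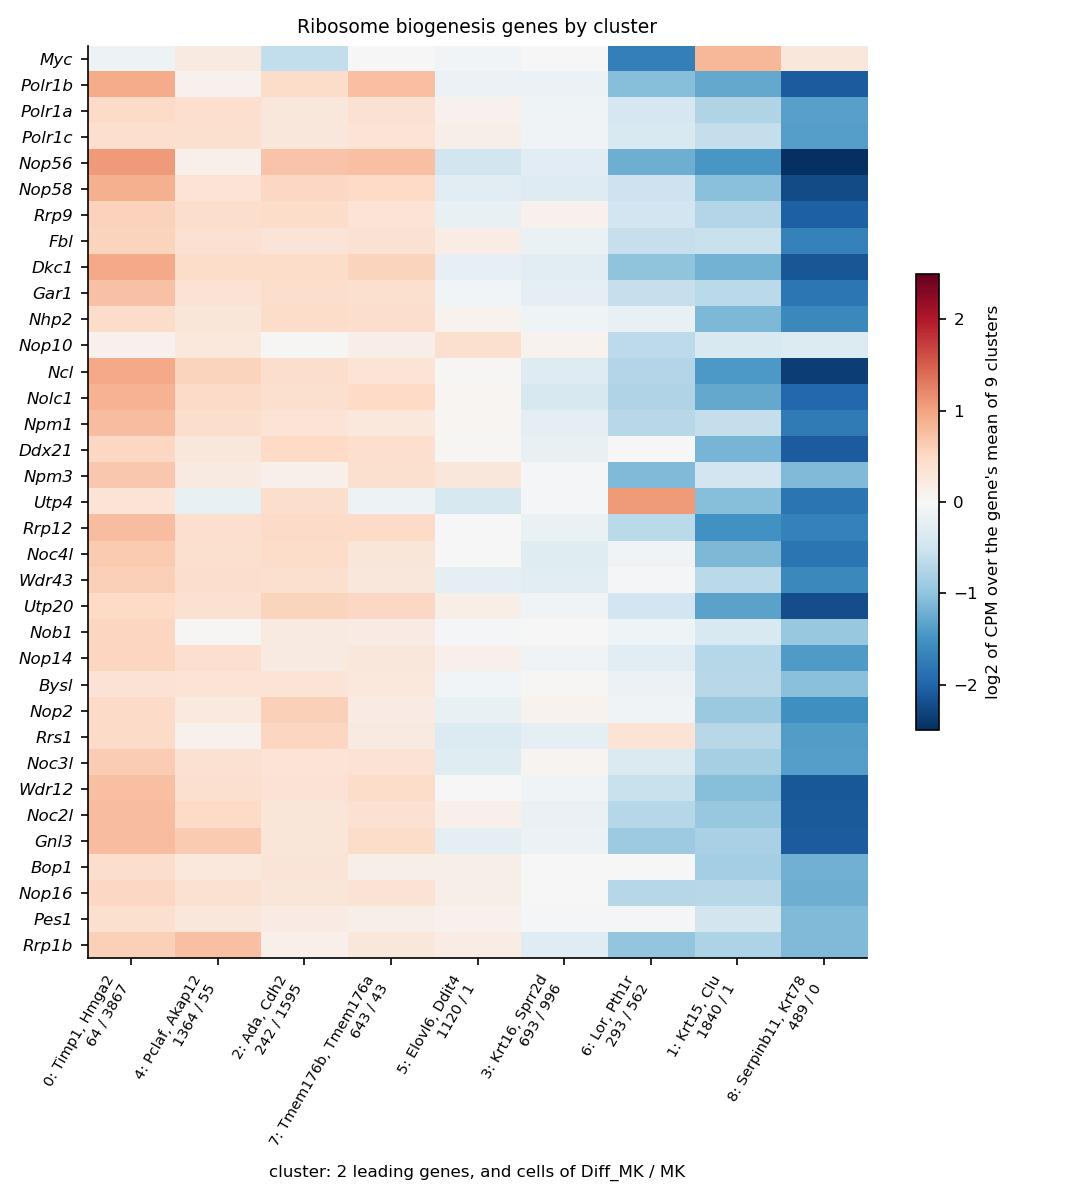
Level of each of the 35 genes in the 9 clusters of 100 or more cells, as log2 of CPM over the mean of that gene across the clusters; labels give 2 leading genes and the cells from Diff_MK and MK. Cluster 8 on the right is lowest for 33 genes and cluster 0 on the left highest for 28, while Myc is highest in cluster 1 and Utp4 in cluster 6.

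Heritable tags allowed the same lineage to be compared between libraries. A clone is the set of cells with the same leading tag, and clones of 20 or more cells numbered 50 in Diff_MK (4379 cells) and 46 in MK (2278 cells). Member levels per clone ran from 4595 to 8302 CPM in Diff_MK, with a median of 6686, and from 8313 to 11794 CPM in MK, with a median of 9697. The ranges met without overlapping, and the counting intervals of the highest Diff_MK clone (8063 to 8546 CPM) and the lowest MK clone (8027 to 8607 CPM) overlapped. Cells of a clone share a library, so clones are not replicates of a condition.

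Both libraries had 20 or more cells of 21 clones, holding 2821 Diff_MK and 1515 MK cells. The members were lower in Diff_MK in 21 of 21 clones, with ratios from 0.527 to 0.775 and a median of 0.681, and every interval lay below 1. The largest shared clone, with 539 Diff_MK and 280 MK cells, had 6700 CPM in Diff_MK and 9793 CPM in MK. Its Nop56 level was 238 CPM in Diff_MK and 613 CPM in MK. The lowest ratio came from a clone of 38 Diff_MK and 69 MK cells, at 5758 CPM in Diff_MK and 10931 CPM in MK. Nop56 was lower in Diff_MK in all 21 clones and Myc higher in 18. In the clones the low cell-cycle group also held more of the Diff_MK cells, for example 47.3% of Diff_MK and 10.7% of MK cells in the largest, and its part in the clone ratios was not tested.

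**Figure D5:**
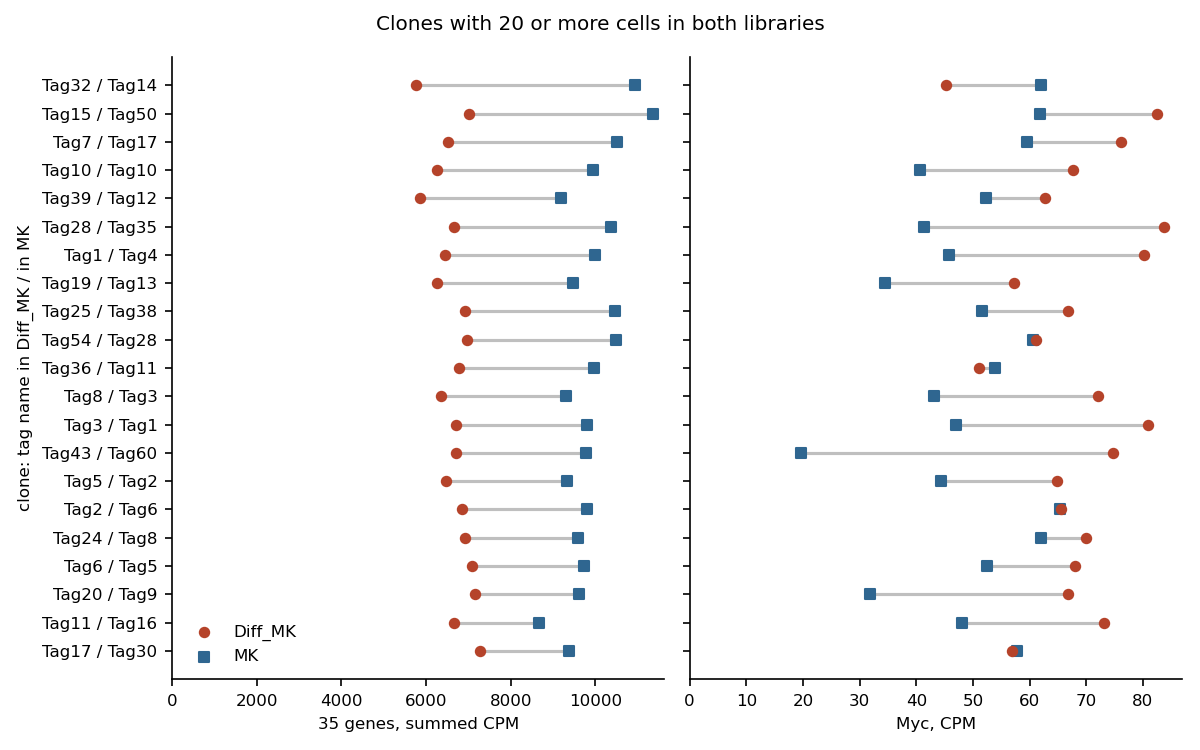
Summed CPM of the 35 genes (left) and CPM of Myc (right) in the 21 clones with 20 or more cells in both libraries, ordered by ratio; circles are Diff_MK and squares MK. The members are lower in Diff_MK in 21 of 21 clones and Myc is higher in 18.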

How the data were processed

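RNA and tag libraries of GFP-sorted cells were grouped by title, 1 library of each kind per group. The RNA tables hold UMI counts, whole numbers per gene and cell, deposited by the authors without normalization. The file headers name Cell Ranger 6.1.2, and the build was mm10 per the submitters' processing notes. Neither the gene annotation nor whether tag counts are UMIs is given in the sources used here.

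Cells with at least 1000 genes and at most 15% mitochondrial UMIs were kept (6912 of 7569 Diff_MK and 7175 of 7780 MK barcodes). Counts were summed per library and divided by its total (CPM). Ratios have exact conditional binomial, levels exact Poisson and cell shares exact Clopper-Pearson intervals, which do not cover differences between cultures, and no p-value was computed. A gene was called at 1.5-fold or more if its mean CPM was 5 or more. Members and lists were chosen with earlier results of these data known. Of each list, the members with the highest mean and the most extreme ratios are named. Cytosolic and mitochondrial ribosomal protein genes were taken by symbol pattern. Krt5, Krt14, Mlana, Col1a1, Ptprc, Pecam1, Malat1 and Aldoa were named after their values were seen. Scrublet marked 0.333% of Diff_MK and 0.195% of MK cells, so it did not work here and doublets were not removed. Leaving out the 496 and 592 cells of highest score was an alternative. Clusters came from 2000 variable genes, 30 components and 15 neighbours with Leiden resolution 0.5. All 35 members were located in the GENCODE vM21 annotation of GRCm38. A clone needed a leading tag of 3 or more counts and at least 2 times the next, and tags of both libraries were matched over the shorter length. Ratio intervals, 1.5-fold calls, thinning and correlations were tested on simulated data, and the other steps were not. Python 3.11.15, scanpy 1.11.5, scipy 1.17.1 and leidenalg 0.10.2 were used. One leading gene of a cluster is not reported here.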

Additional observations from a re-analysis of the deposited data

How the results depend on the processing

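The size of the difference changed with scaling and with the choice and weight of cells. The summed ratio stayed below 1 throughout, though the members were not lower in Diff_MK in every cluster. Of 35 members, 32 had a negative log2 ratio and 1, Myc, a positive one in all 9 settings of scaling, cell weight and cell choice, while Nop10 and Rrp1b had both signs. In place of 12 lower and 0 higher members, median scaling gave 5 and 1, a median of -0.34 and a summed ratio of 0.754. Equal weight of the 3 cell-cycle groups gave 3 lower members (Nop56, Utp4 and Polr1b), a median of -0.33 and a summed ratio of 0.777. Equal weight of cells gave 17 lower members, 1 higher (Myc) and a summed ratio of 0.632. Cells of 10000 to 20000 UMIs gave 18 lower members and a ratio of 0.639, cells with a tag found in both libraries 8 and 0.686, and all barcodes 12 and 0.675. A 2-fold threshold left 1 lower member, Nop56, against 0.884% of all genes. The share of all genes at least 1.5-fold lower changed with the setting too. It was 3.16% under median scaling, 4.90% with equal cell-cycle groups and 11.9% with equal weight of cells. In cells of 10000 to 20000 UMIs it was 10.3%, in cells with a tag found in both libraries 6.22%, and over all barcodes 7.70%. Of 280 single-member values under these alternatives, 143 moved beyond their counting interval. With the 3 cell-cycle groups weighted equally, the G2/M list's median was 0.03 but the G1/S list's was still -0.30. That weighting thus did not even out the G1/S genes between libraries. Tags at 10 or more counts left 21 of 21 shared clones lower, and identical tags 16 of 16. Thinned to 5000 UMIs, the median correlations were 0.19 in Diff_MK and 0.11 in MK. With the members kept among the variable genes, the range over clusters was 5.11-fold. With cells grouped by the G1/S list alone, the ratios from low to high were 0.741, 0.841 and 0.811, and by the G2/M list alone 0.712, 0.787 and 0.781. Each group has 1 RNA library, so no analysis paired by replicate was possible. Variation between cultures of the same kind was not measured, so the intervals say how precisely these libraries were counted.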
